A study of Arabidopsis thaliana with 8 samples.

Results

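Transcript levels in Arabidopsis thaliana seedlings directly after a persistent heat stress were compared with those of unstressed seedlings sampled at the same time. The comparison rests on 4 of the 8 arrays of the study, 2 of heat-stressed and 2 of mock seedlings. Both groups were grown in vitro for 3 weeks under long days at 22 °C. The heat seedlings were moved to 37 °C 3 h into the light phase, stayed there for 30 h and were sampled with no recovery, whereas the mock seedlings remained at 22 °C. The other 4 arrays came from heat and mock seedlings sampled after a further 2 days at 22 °C. The labels name no genotype, mutation or transgene for any group, and they call the 2 arrays of each group biological replicates without saying whether plants were pooled. P-values therefore measure the spread between these samples only. Because whole seedlings were extracted, a smaller number of cells of one type and less RNA per cell cannot be told apart in any result below.

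Plant cells answer high temperature through heat shock transcription factors, which switch on genes for chaperones. The small heat shock proteins hold unfolding proteins in solution, HSP70 and HSP90 refold them with the help of co-chaperones, and chaperonins fold proteins inside chloroplasts and mitochondria. Photosynthesis is among the processes most easily damaged by heat, and dehydration proteins and sugar transporters are often drawn into the response of shoots to a long stress.

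The values are log2 expression levels normalized across the arrays by the authors, and every change below is the mean of the 2 heat arrays minus the mean of the 2 mock arrays on that scale, with its standard error from limma's fit (n = 2 arrays per group). A probe set, the group of probes that reports one transcript, was called higher or lower where its Benjamini-Hochberg adjusted p lay under 0.05. Of 22746 probe sets 9334 were called (41.0%), 4825 of them higher (21.2%) and 4509 lower (19.8%). Both heat arrays lay above both mock arrays for 30.2% of probe sets and below them for 29.5%. Among probe sets with a single gene 20.1% were called higher and 17.4% lower. The median called rise was 1.17 and the median called fall was -1.28. Changes of at least 4-fold were called for 1058 rises (4.65%) and 1155 falls (5.08%), and changes of at least 16-fold for 242 rises (1.06%) and 184 falls (0.809%). When the test asked for a change beyond 1 log2 unit in place of any change, 2991 probe sets were called (13.1%), 1455 higher and 1536 lower.

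**Figure D1:**
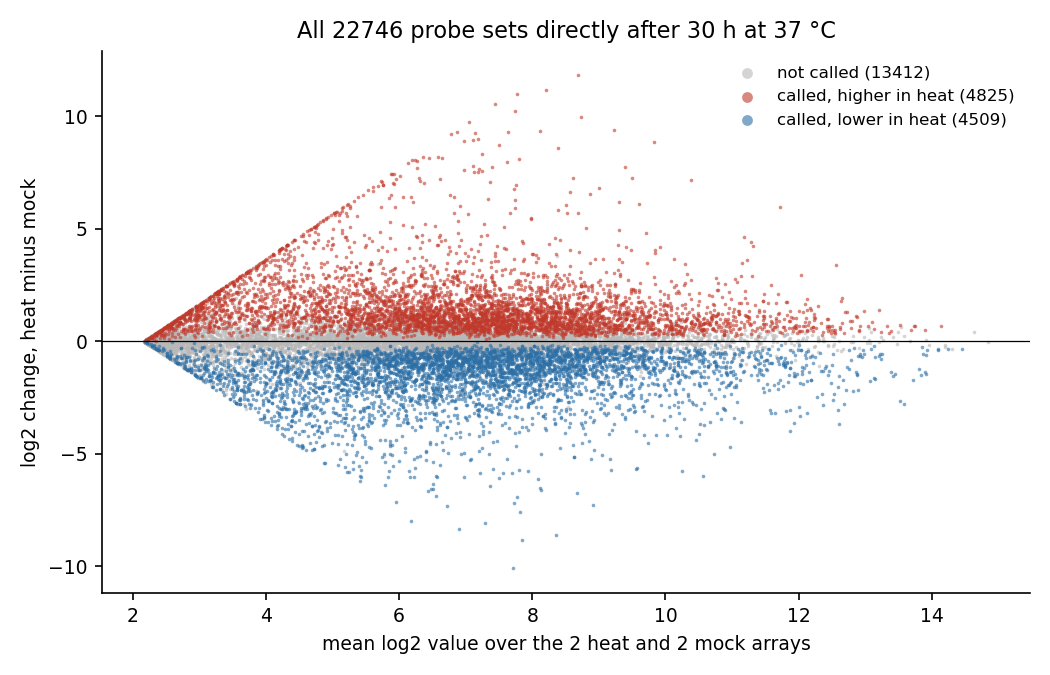
Log2 change (heat minus mock, y axis) against the mean log2 value over the 2 heat and 2 mock arrays (x axis) for 22746 probe sets, 1 point each. Red points are the 4825 called higher in heat, blue points the 4509 called lower and grey points those not called. The 2 straight edges at the left are probe sets at the floor of the array in one group.

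The arrays of a group were close to each other. Heat and mock replicates 1 and 2 below are the arrays without recovery unless recovered ones are named. Across probe sets the replicates correlated at 0.9946 in heat and 0.9956 in mock, a description of arrays that share one processing, and the median difference between replicates at a mean log2 value of 4 or more was 0.163 in heat and 0.144 in mock. Array medians were 5.06 to 5.07 in heat and 5.09 in mock. Values under 2.3 lie at the floor of the signal, where a transcript is not told apart from background, and 6208 probe sets lay there in both groups. A change against a group whose arrays both sat at the floor is a lower limit and is written as "at least". The fit shares its spread over all groups, and arrays at the floor hardly vary. Standard errors and p-values of such changes can therefore understate the spread between the heat or mock replicates. The 3′ minus 5′ difference of the GAPDH control, a measure of RNA integrity, was 2.95 ± 0.22 in heat and 3.19 ± 0.04 in mock (SD, n = 2). The same difference of the actin control ran the other way, at 6.30 ± 0.04 in heat and 6.06 ± 0.04 in mock, with no overlap between the groups. It was 0.248 higher in heat, and the actin 3′ probe set alone was 0.251 higher. The actin difference therefore rose with the 3′ signal, and the part of RNA integrity in it was not tested. The ubiquitin control gave 1.47 and 1.69 in heat and 1.79 and 1.65 in mock, with overlap. The control probe set for 25S ribosomal RNA read 13.41 and 13.56 on the heat arrays, against 11.73 and 11.43 on the mock arrays. The labelled tissue was checked against markers. Both groups lay at the floor for AMS, a flower regulator, for OLEO3, a seed oil body protein, and for EXPA7 and EXPA18, expansins of root hairs. Of the 3 root genes measured, PYK10 was above the floor in both groups and lower in heat, with values given further on. All 7 photosystem and antenna genes measured and all 4 stomatal genes measured were above the floor in both groups.

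The first question was how the folding machinery stood after 30 h. Co-chaperones and folding helpers rose as a group, with 13 of 15 measured members called higher and 1 called lower, against 21.2% and 19.8% of all probe sets. Their median change was 2.54, while the median of all probe sets was 0.00. Lists were collected from gene symbols, and 50 of them, this one and most of those below included, were put together after values were seen. Their counts are therefore a description. The planned list of cyclophilins and FKBP proteins had 5 of 6 called higher and 0 lower, at a median of 0.96. Among the 1551 probe sets with a single gene that carries a symbol 325 were called higher and 393 lower (25.3%).

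Members that carry clients between HSP70 and HSP90 rose by unequal amounts. Hop3, a TPR adaptor that links the 2 chaperones, read 10.21 and 10.03 in heat, against 2.33 and 2.49 in mock, a change of 7.71 ± 0.14 (limma adjusted p 3.7e-05). Its relative Hop2 read 10.35 and 10.47 in heat, against 7.97 and 7.85 in mock, a change of 2.50 ± 0.08. For both genes the heat arrays lay above the mock arrays with no overlap. Hop1, a further relative, was called higher by less, with changes of 0.831 to 0.874 over the alternative fits (limma adjusted p 0.010 in the fit reported). The call of Hop1 ended without heat replicate 2, mock replicate 1 or mock replicate 2, and under the test against 1 log2 unit.

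Among the prolyl isomerases, ROF2, an FKBP-type partner of HSP90, rose by 9.37 ± 0.40 to 13.85 and 13.98 in heat, against 5.08 and 4.01 in mock. SQN, a cyclophilin 40 known for its part in loading small RNAs onto ARGONAUTE, read 8.61 and 8.38 in heat, against 3.38 and 3.05 in mock (change 5.28 ± 0.16, adjusted p 0.00011). HSA32, which is needed to hold acquired thermotolerance over days, read 9.13 and 9.10 in heat, against 4.04 and 3.91 in mock (change 5.14 ± 0.11). For all 3 genes the heat arrays stood above the mock arrays with no overlap. The cytosolic chaperone Hsp70-2 itself read 9.96 and 9.90 in heat, against 6.51 and 5.96 in mock, a change of 3.70 ± 0.22.

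The Fes1 proteins, nucleotide exchange factors of HSP70, did not move as one. Fes1A rose by 3.58 ± 0.32, with 8.64 and 8.95 in heat against 5.66 and 4.77 in mock. Fes1B fell by 3.07 on the log2 scale, with 5.85 and 5.45 in heat against 8.73 and 8.71 in mock (standard error 0.15, adjusted p 0.00032). Fes1C was not called, with 7.22 and 7.04 in heat against 7.52 and 7.99 in mock (adjusted p 0.082). Fes1B was thus the 1 called member of the list with lower values on both heat arrays.

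Chaperones of the organelles rose as well. Cpn60beta2, a chloroplast chaperonin subunit, read 13.47 and 13.52 in heat, against 9.02 and 9.11 in mock (change 4.43 ± 0.10, adjusted p 5.4e-05), and Cpn60beta3 read 9.82 and 9.59 in heat, against 7.14 and 6.83 in mock (change 2.71 ± 0.19). The third member measured, Cpn60beta4, was called higher by 0.75 ± 0.16, and that call ended when any 1 of the 4 compared arrays was left out. ATHSP22.0, a small heat shock protein of the endoplasmic reticulum, lay at the floor in mock and read 9.43 and 9.79 in heat, a rise of at least 7.43 ± 0.13. ATJ1, a J-domain protein of mitochondria, rose by 2.18 ± 0.31.

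**Figure D2:**
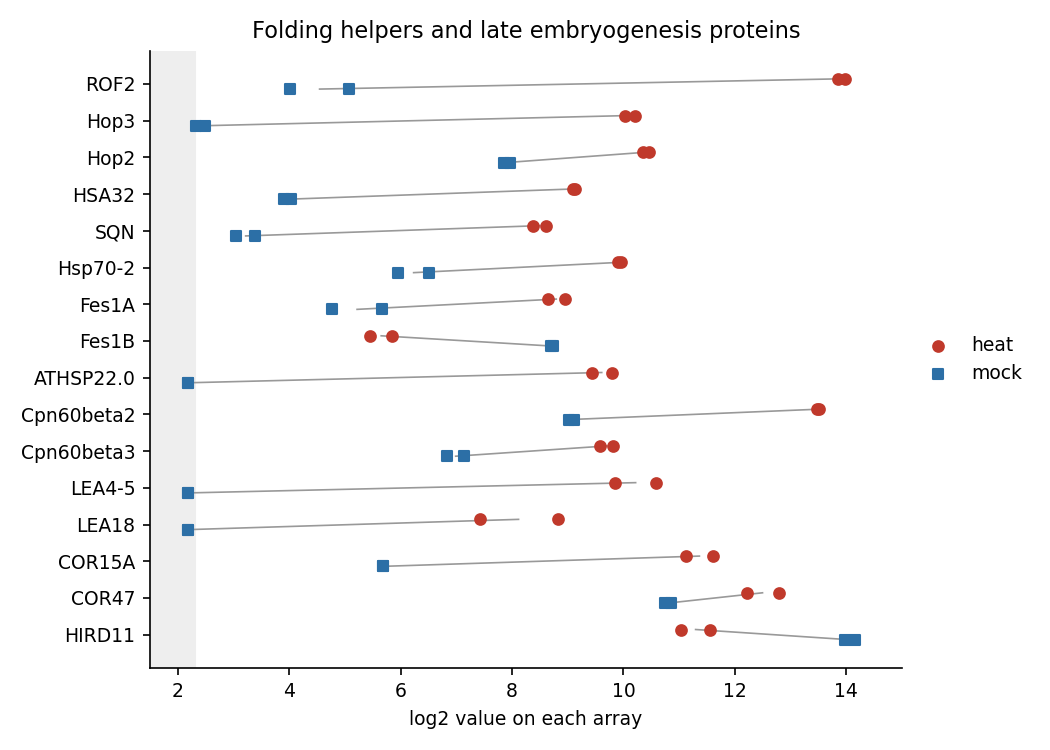
Log2 value on each of the 2 heat arrays (red circles) and 2 mock arrays (blue squares) for 16 genes of folding and of the late embryogenesis group, with a grey line joining the group means. The shaded band at the left is the floor of the array. Heat circles lie to the right of the mock squares for every gene shown except Fes1B and HIRD11, where they lie to the left.

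Genes of the endoplasmic reticulum, where secreted and membrane proteins fold, moved less. Of 11 measured members of its folding and stress response 7 were called higher and 1 lower, with a median of 0.69. ATERDJ3B, a J-domain partner of the luminal HSP70, read 9.86 and 9.79 in heat, against 8.27 and 8.19 in mock (change 1.59 ± 0.09, adjusted p 0.00046). BZIP28 and BZIP17, membrane-bound transcription factors that are released when unfolded proteins build up, rose by 1.8 ± 0.12 and 1.46 ± 0.23. BZIP60, the factor whose transcript is spliced by IRE1, was not called, with 7.66 and 7.65 in heat against 7.84 and 7.68 in mock. ATERDJ2B, of the protein translocation channel, was the 1 member called lower, at -0.99 ± 0.14, and was not called when only the 4 compared arrays were fitted.

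Late embryogenesis abundant proteins, which protect cells as they lose water, were called higher for 8 of 12 measured members and lower for 1, with a median of 2.17. With only the 4 compared arrays, or with values under 4 set to 4, 5 were called higher. The broader planned list of dehydration and late embryogenesis genes had 8 of 16 called higher and 0 lower, at a median of 0.81. LEA4-5 read 9.85 and 10.59 in heat and lay at the floor on both mock arrays, a rise of at least 8.04 ± 0.25 (adjusted p 0.00011). LEA18, also at the floor in mock, read 7.42 and 8.82 in heat, a rise of at least 5.94 ± 0.47. The chloroplast protein COR15A read 11.12 and 11.61 in heat, against 5.68 and 5.69 in mock, while its tandem partner COR15B was not called, with 10.71 and 10.35 in heat against 9.76 and 9.69 in mock (adjusted p 0.20). For each of the 2 genes both heat arrays lay above both mock arrays.

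Dehydrins split within the list. COR47 rose by 1.70 ± 0.22, with 12.21 and 12.79 in heat against 10.75 and 10.86 in mock. HIRD11, a small histidine-rich dehydrin that binds metal ions, fell by 2.78 on the log2 scale, with 11.55 and 11.04 in heat against 14.17 and 13.98 in mock (standard error 0.19, adjusted p 0.00074). LTI30 read 7.85 and 9.86 in heat, against 8.45 and 7.63 in mock. Its heat arrays lay on either side of a mock array, and it was not called.

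Over all probe sets the changes ran from -10.08 to 11.81, and both of these extremes belong to probe sets with no single gene listed, which are unnamed here. The largest changes among probe sets with a single nuclear gene fell mostly on genes named only by locus. The largest rise among probe sets with a single nuclear gene was that of AT3G02480, with 13.04 and 13.48 in heat against 2.23 and 2.34 in mock (change 10.97 ± 0.15). AT5G51440 lay at the floor in mock and read 10.40 and 10.15 in heat, a rise of at least 8.07 ± 0.08. AT2G37870 read 10.77 and 10.58 in heat, against 2.60 and 2.42 in mock (change 8.17 ± 0.31), and AT5G25450 read 10.93 and 11.11 in heat, against 3.39 on both mock arrays (change 7.63 ± 0.24). The largest 15 also held AT1G53540 (10.23 ± 0.28), AT2G29500 (9.32 ± 0.37), AT3G17520 (at least 7.42 ± 0.52) and 3 loci of the mitochondrial DNA insertion described further on, AT2G07722, AT2G07741 and AT2G07777. SAG29, a SWEET-type sugar transporter of the plasma membrane, read 9.50 and 10.68 in heat and lay at the floor on both mock arrays, a rise of at least 7.90 ± 0.55.

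At the other end, the deepest fall among probe sets with a single nuclear gene was that of AT3G15450, with 3.84 and 4.29 in heat against 12.57 and 12.76 in mock (change -8.6 ± 0.18). AT1G66100 lay at the floor on both heat arrays and read 10.18 and 10.16 in mock, a fall of at least 7.99 on the log2 scale. AT1G52200 read 3.10 and 3.11 in heat, against 10.03 and 9.96 in mock (change -6.89 ± 0.08, adjusted p 1.5e-05). DEWAX, a repressor of cuticular wax synthesis, read 4.1 and 5.63 in heat, against 11.45 and 11.31 in mock (change -6.52 ± 0.52). PRX71, a wall peroxidase, read 2.71 and 3.58 in heat, against 9.14 and 9.19 in mock (change -6.02 ± 0.33). In each of these genes the groups were separated by more than 5 log2 units. Of the remaining 10 of the deepest 15 falls, all named by locus only, changes ran from -7.34 to -6.02, and that of AT3G05730 was not called when only the 4 compared arrays were fitted (adjusted p 0.067).

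A second block of rises concerned the nuclear machinery that makes and processes RNA. All 12 measured subunits of the nuclear RNA polymerases were called higher, with a median of 1.59. RNA polymerase I, which transcribes ribosomal RNA, was represented by its 2 largest subunits. NRPA1 read 7.55 and 7.31 in heat, against 4.88 and 5.01 in mock (change 2.48 ± 0.18), and NRPA2 read 9.10 and 8.95 in heat, against 7.08 and 7.16 in mock (change 1.90 ± 0.07). The corresponding subunits of RNA polymerase III, which makes transfer RNA, rose by 3.04 ± 0.27 (NRPC1) and 2.07 ± 0.17 (NRPC2). NRPB12, a small subunit shared between the enzymes, read 11.34 and 11.35 in heat, against 8.79 and 9.03 in mock. The smallest rises were those of NRPD7 (0.60 ± 0.07), a subunit of the silencing enzyme RNA polymerase IV, and NRPB6B (1.01 ± 0.23), whose call ended without heat replicate 1, heat replicate 2 or mock replicate 1, without either recovered mock array, and when only the 4 compared arrays were fitted.

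Ribosome assembly factors rose beside them, with 10 of 11 called higher, 0 lower and a median of 1.46. RH57, an RNA helicase, read 6.56 and 6.71 in heat, against 4.07 and 3.67 in mock (change 2.76 ± 0.17). YAO and IMP4, nucleolar proteins of small subunit processing, rose by 2.18 ± 0.19 and 2.07 ± 0.20. PES, the pescadillo homologue, read 10.76 and 10.71 in heat, against 9.01 and 9.18 in mock (change 1.64 ± 0.07, adjusted p 0.00026). RRP41, of the exosome that trims ribosomal RNA precursors, rose by 1.61 ± 0.11. The exception was DIM1B, a ribosomal RNA methyltransferase, with 6.38 and 6.15 in heat against 6.13 and 6.24 in mock. The arrays of DIM1B overlapped, whereas those of the 10 called members did not.

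Splicing factors followed with smaller changes, 13 of 17 called higher and 0 lower, at a median of 1.01, in a list put together after values were seen. The planned symbol list of 7 gave 3 rises and 2 falls at a median of 0.00, the falls being those of AT5G41920 and of SCL21, a SCARECROW-like transcription factor that its symbol brought into that list. RDM16, a spliceosomal protein also known for its role in DNA methylation, read 8.43 and 8.57 in heat, against 7.07 and 7.16 in mock (change 1.39 ± 0.07). The large U2AF subunit ATU2AF65A, which marks the 3′ splice site, rose by 1.33 ± 0.13, and the small subunit ATU2AF35A rose by 1.01 ± 0.10. Of the paired genes MAC3A and MAC3B, which encode a ubiquitin ligase of the spliceosome, MAC3A rose by 0.84 ± 0.06. MAC3B was not called, with 9.99 and 9.79 in heat against 9.71 and 9.86 in mock. A single member of the list was called when the test asked for more than 1 log2 unit.

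The LSM proteins, rings that guide splicing and messenger RNA decay, gave 4 rises and 1 fall among 6 genes. LSM3A read 9.47 and 9.27 in heat, against 7.60 and 7.40 in mock (change 1.87 ± 0.15). LSM1B rose by 0.80 ± 0.09 while LSM1A, its close copy, was called lower by -0.51 ± 0.09, a call that ended without heat replicate 1 and with only the 4 compared arrays. In messenger RNA export and the nuclear pore 7 of 8 measured genes were called higher and 1 lower, among them THO5 with 9.51 and 9.25 in heat against 7.28 and 7.67 in mock (change 1.90 ± 0.18) and the nuclear pore protein NUP1 (1.11 ± 0.11). That count dropped to 4 higher without mock replicate 1 and with only the 4 compared arrays. Of 5 Mediator subunits, which bridge transcription factors and RNA polymerase II, 4 were called higher, led by MED6 at 1.32 ± 0.20, and 2 when only the 4 compared arrays were fitted. The calls of MED9 and MED31 were not stable: that of MED31 ended without heat replicate 1 and with only the 4 compared arrays, and that of MED9 ended without any 1 of 7 arrays, all but heat replicate 1.

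Chromatin remodelling and silencing genes were called higher for 12 of 24 measured members and lower for 0, at a median of 0.40. When the test asked for more than 1 log2 unit, 2 were called higher. AGO7, which loads a microRNA to start trans-acting small RNA production, read 5.19 and 5.17 in heat, against 2.33 on both mock arrays (change 2.85 ± 0.18). CHR23 and ATRX, helicase-type remodellers, rose by 1.34 ± 0.14 and 1.17 ± 0.12, and ETL1, also called CHR19, by 0.81 ± 0.08. INO80 was not called, at 7.46 and 7.59 in heat against 7.73 and 7.61 in mock.

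**Figure D3:**
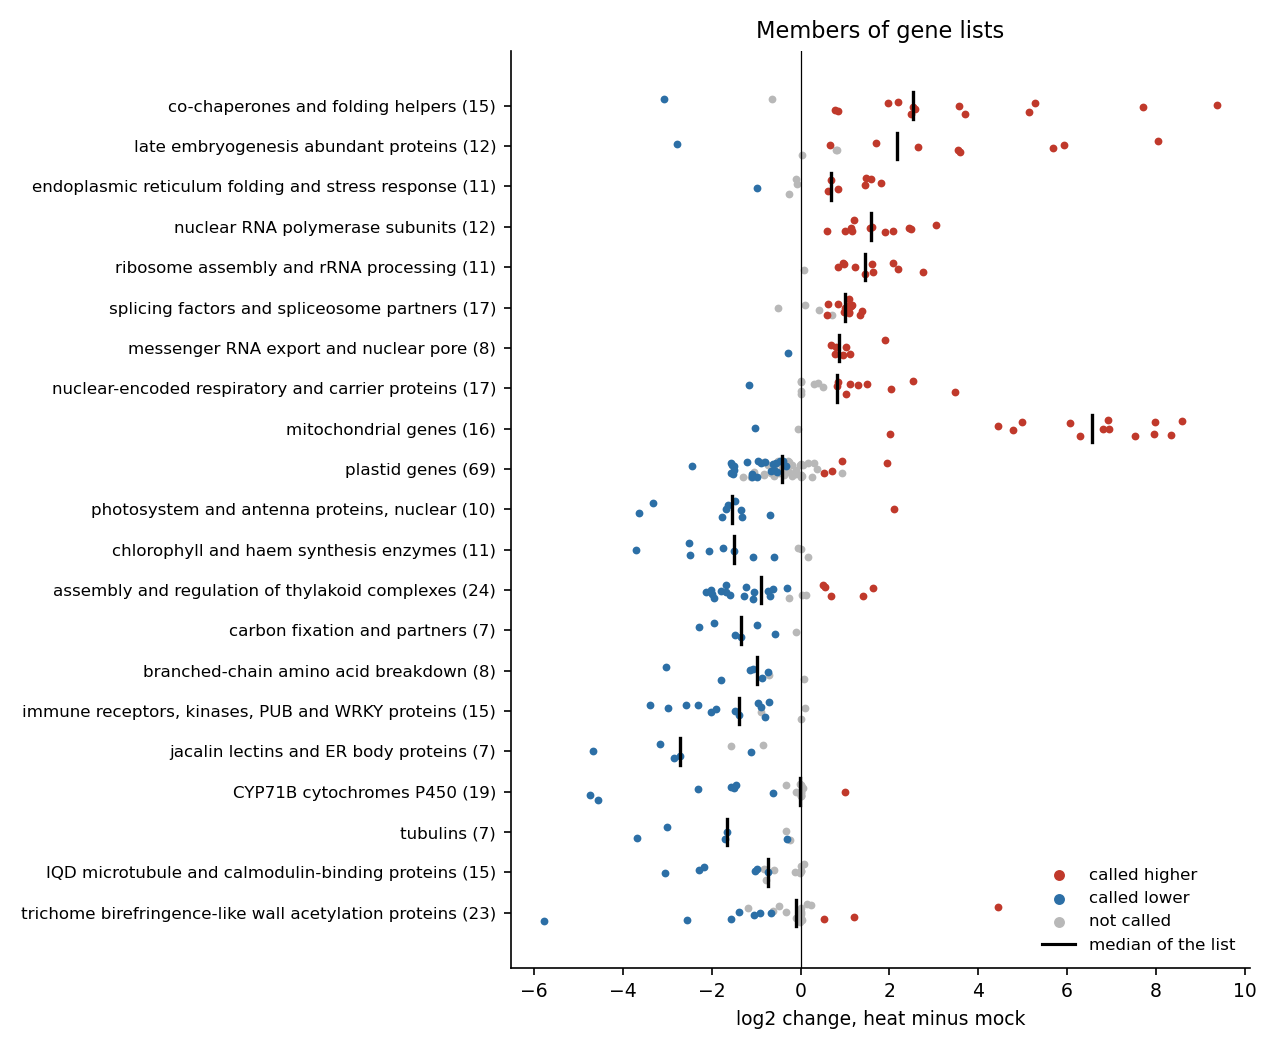
Log2 change (heat minus mock, x axis) of every measured member of 21 gene lists, with the number of members in brackets. Red points were called higher, blue points lower and grey points neither, and black bars are the list medians. The medians of the lists at the top and of the mitochondrial genes lie right of 0, and those of the plastid genes and of every list under them lie left of 0 or, for the CYP71B family, at it.

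Protein breakdown genes moved in both directions. PUB19, a U-box ubiquitin ligase that dampens drought responses, was at the floor in mock and read 8.598 and 8.578 in heat, a rise of at least 6.41 ± 0.01 (adjusted p 5.5e-09). PUB43 rose by 1.27 ± 0.13. Among the ubiquitin-conjugating enzymes 4 of 13 were called higher and 5 lower, or 3 lower without heat replicate 2 or mock replicate 2, with UBC30 at 1.47 ± 0.08 and UBC29 at -0.93 ± 0.13. Of the ubiquitin-specific proteases, which take ubiquitin off again, 6 of 12 were called higher and 1 lower, with UBP23 at 1.58 ± 0.20 and UBP15 at -0.61 ± 0.09. These shares lie on both sides of those of all probe sets.

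The ATG8 proteins, which coat the autophagosome, gave opposite results between copies. ATG8E fell by 3.18 on the log2 scale, with 6.57 and 6.42 in heat against 9.60 and 9.73 in mock, and ATG8F fell by 1.82, with 9.88 and 10.03 in heat against 11.76 and 11.80 in mock. ATG8B rose by 1.97 ± 0.23, with 9.61 and 9.45 in heat against 7.66 and 7.46 in mock, and ATG8D rose by 1.36 ± 0.07. The heat arrays of ATG8E, ATG8F and ATG8D lay within 0.2 of each other. With the gene ATG3, an enzyme that attaches ATG8 to membranes, there was no call, at 8.10 and 8.38 in heat against 7.99 and 8.38 in mock. Over the ATG8 genes and their partners 6 of 11 were called higher (54.5%) and 2 lower (18.2%), against 21.2% and 19.8% of all probe sets. The higher calls of ATG8C and ATG8H ended with only the 4 compared arrays.

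Transcripts of the mitochondrial genome reached high values in heat. Of 16 mitochondrial genes 14 were called higher and 1 lower, with a median of 6.55. The nad genes encode subunits of respiratory complex I. The gene nad9 read 11.42 and 11.41 in heat, against 3.05 and 3.11 in mock (change 8.34 ± 0.23), and nad7 read 7.18 and 7.13 in heat, against 2.74 and 2.70 in mock. nad4, at 10.19 and 10.15 in heat against 8.35 and 7.99 in mock, changed by 2.00 ± 0.19, and nad2 was not called. Of the cytochrome oxidase genes, cox2 read 12.67 and 12.68 in heat, against 4.25 and 3.94 in mock. Its partner cox1 read 12.40 and 12.41 in heat, against 5.76 and 5.43 in mock. The exception was ccb382, a cytochrome c maturation gene, which fell by 1.04 with 7.51 and 7.62 in heat against 8.54 and 8.66 in mock. Chromosome 2 of the nucleus carries an insertion of mitochondrial DNA, and of its 34 measured loci 24 were called higher and 0 lower, and probes of the 2 locations may report the same transcripts. The 25S ribosomal RNA control moved with this group, 1.91 higher in heat than in mock, and its part in the result was not tested.

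Nuclear genes for mitochondrial respiration changed by smaller amounts. Of 17 measured genes for respiratory and carrier proteins 9 were called higher and 1 lower, at a median of 0.82. The lower call, that of NDB1, ended without heat replicate 2, without any 1 of the 4 mock arrays, and with only the 4 compared arrays. CYTC-2, a cytochrome c, read 11.16 and 11.77 in heat, against 8.28 and 7.70 in mock (change 3.48 ± 0.35), and its paralogue CYTC-1 read 12.02 and 12.07 in heat, against 10.72 and 10.78 in mock (change 1.30 ± 0.08). IDH-VI, a regulatory subunit of isocitrate dehydrogenase, rose by 2.04 ± 0.19, and NDB2, an alternative NADH dehydrogenase of the inner membrane, by 2.52 ± 0.30. IDH-V was not called, at 9.30 and 9.28 in heat against 9.17 and 8.81 in mock.

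Photosynthesis genes of the nucleus were called lower. Of 10 photosystem and antenna genes 9 were called lower and 1 higher, at a median of -1.56. Falls were common among all probe sets at high levels in the recovered mock seedlings. Called lower were 44.7% at log2 8 to 10, 48.7% at 10 to 12 and 57.1% at 12 to 16, against 19.8% of all probe sets. These shares also stand beside the chlorophyll, thylakoid and carbon fixation counts below. The antenna protein CP29 has 3 copies in this set. LHCB4.1 read 12.24 and 12.38 in heat, against 13.99 and 13.90 in mock (change -1.63 ± 0.08). LHCB4.2 read 10.23 and 10.002 in heat, against 13.84 and 13.68 in mock (change -3.64 ± 0.11). LHCB4.3 went the other way, with 9.34 and 8.72 in heat against 6.85 and 7.03 in mock (change 2.09 ± 0.23). In photosystem I, PSAN read 10.55 and 10.18 in heat, against 13.86 and 13.52 in mock (change -3.33 ± 0.20), and PSAE-1 fell by 1.68. Summed over the 7 photosystem genes of the marker list, the log2 level was 14.24 and 14.20 in heat, against 16.29 and 16.14 in mock.

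The enzymes that make chlorophyll and haem were called lower for 8 of 11 and higher for 0, at a median of -1.51. PORB, the light-dependent reductase that completes the chlorophyll ring, read 8.76 and 8.69 in heat, against 12.48 and 12.38 in mock (change -3.71 ± 0.04, adjusted p 1.5e-05). CHLI2, a subunit of the magnesium chelatase at the branch toward chlorophyll, read 6.78 and 6.64 in heat, against 9.16 and 9.28 in mock (change -2.51 ± 0.10), and CHLM, which methylates the product of that step, read 10.15 and 10.20 in heat, against 11.61 and 11.74 in mock. HEME1 and HEME2, earlier in the shared pathway, fell by 2.48 and 2.06. HEMA2, a root isoform of the first committed enzyme, was not called, with 5.86 and 5.83 in heat against 5.64 and 5.72 in mock. The groups did not overlap for any of the 8 called enzymes.

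Of 24 genes that assemble or regulate the thylakoid complexes 16 were called lower and 5 higher, at a median of -0.88. The higher calls numbered 3 without heat replicate 1, without heat replicate 2 or with only the 4 compared arrays. The chloroplast NADH dehydrogenase-like complex lost transcript in its subunits NdhS, with 9.29 on both heat arrays against 11.13 and 11.05 in mock, and NdhL, which fell by 1.67. The CURT1 proteins, which bend the thylakoid membrane at grana margins, split. CURT1C read 8.94 and 8.89 in heat, against 11.13 and 10.98 in mock (change -2.14 ± 0.09), while CURT1D read 9.61 and 9.84 in heat, against 8.30 and 8.33 in mock (change 1.41 ± 0.18). PGRL1B, of cyclic electron flow around photosystem I, also rose, by 1.64 ± 0.09.

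In carbon fixation 6 of 7 measured genes were called lower and 0 higher, at a median of -1.35. PRK, phosphoribulokinase, read 10.62 and 10.70 in heat, against 12.67 and 12.55 in mock (change -1.95 ± 0.08). TRXF2, the thioredoxin that activates these enzymes in the light, fell by 2.3, and the Calvin cycle phosphatase SBPASE fell by 1.35. Rubisco activase RCA, a heat-labile helper of Rubisco, read 13.65 and 13.52 in heat, against 14.12 and 14.18 in mock, a smaller fall of 0.56. NTRC, a thioredoxin reductase of the chloroplast, was not called, with 9.45 and 9.47 in heat against 9.50 and 9.62 in mock.

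Genes of the chloroplast's own genome were called less stably. Of 69 plastid genes 22 were called lower and 4 higher, at a median of -0.43, and the count of lower calls dropped to 7 without heat replicate 2, to 9 without mock replicate 1, to 13 without mock replicate 2, to 14 without either recovered mock array and to 12 with only the 4 compared arrays. The NADH dehydrogenase-like subunit ndhH read 4.29 and 3.99 in heat, against 6.83 and 6.32 in mock (change -2.44 ± 0.28), and petA, cytochrome f, fell by 1.20. petN, a small subunit of the same cytochrome complex, rose by 1.95 ± 0.21, and petB read 14.17 and 14.14 in heat, against 13.64 and 13.62 in mock. Plastid genes are read from long shared transcripts, so neighbouring members are not independent of each other.

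**Figure D4:**
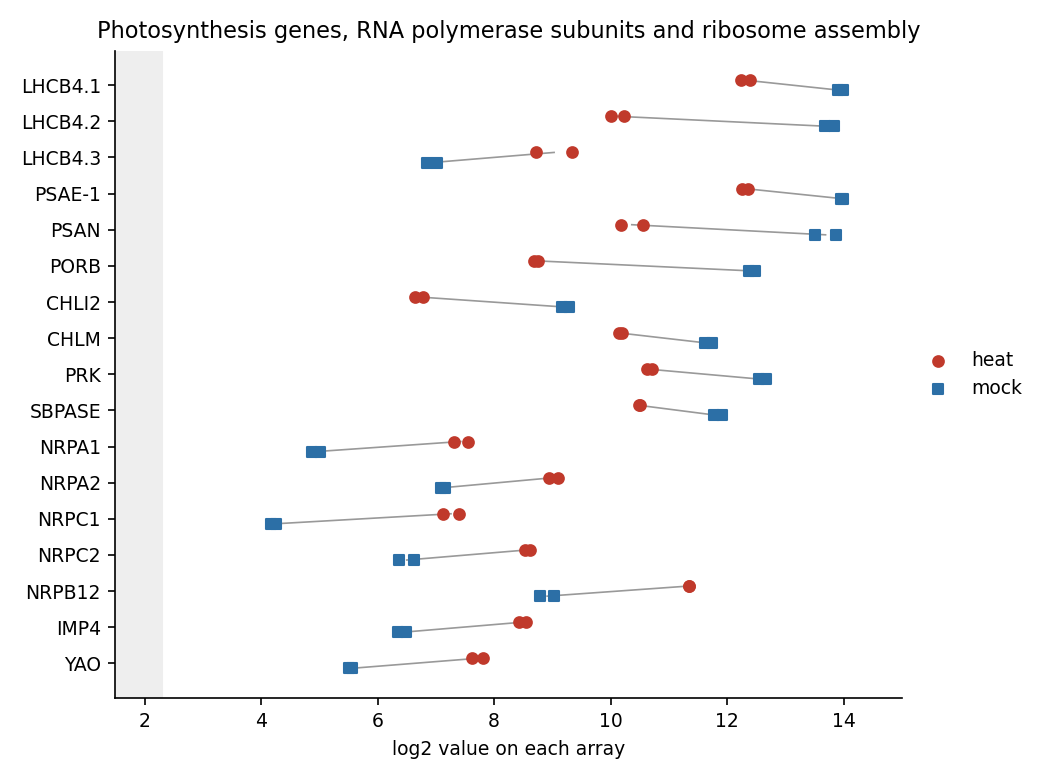
Log2 value on each of the 2 heat arrays (red circles) and 2 mock arrays (blue squares) for 10 genes of photosynthesis, chlorophyll synthesis and carbon fixation and 7 genes of RNA polymerases and ribosome assembly, with a grey line joining the group means. The heat circles of the photosynthesis genes lie left of the mock squares except for LHCB4.3, and those of the polymerase and assembly genes lie right of them.

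Defence genes were covered by 2 lists. The list planned from symbols held 15 genes, 6 called lower, 2 higher and 7 not called, at a median of -0.44, and 2 of its members, PDF1A (called higher) and PDF1B (called lower), are peptide deformylases caught by their symbol. Of 15 immune receptors, kinases, PUB and WRKY proteins, a list put together after values were seen, 12 were called lower and 0 higher, at a median of -1.39, and 7 were called lower once values under 4 were set to 4. SD1-29, a receptor kinase that senses bacterial fatty acid metabolites, read 3.42 and 3.60 in heat, against 7.03 and 6.79 in mock (change -3.40 ± 0.18). BIK1, the kinase that passes signals on from many immune receptors, read 6.18 and 6.34 in heat, against 7.71 and 7.59 in mock (change -1.39 ± 0.10). WRKY53 and WRKY47, transcription factors of defence and senescence, fell by 2.99 and 2.31. PUB23 and PUB24, ligases that restrain the same signalling, were also called lower, though at values under log2 5 that lose their calls once low values are set to 4. The list takes 3 PUB genes, and the 9 U-box ligases measured gave 2 rises, those of PUB19 and PUB43, and 3 falls. SAG101, a partner of EDS1 in immunity through intracellular receptors, fell by 2.03.

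Peptides and lectins of defence followed in part. LCR69, a defensin, read 9.45 and 9.20 in heat, against 12.73 and 12.75 in mock (change -3.42 ± 0.10), while its relative LCR68 read 11.83 and 11.66 in heat, against 10.91 and 10.59 in mock. The rise of LCR68, 1.00 ± 0.13, was not called when only the 4 compared arrays were fitted. Of 15 defensins and thionins 7 lay at the floor in both groups, 4 were called lower (26.7%) and 1 higher (6.7%). Of all probe sets 19.8% were called lower and 21.2% higher. Leaving out any 1 of 7 arrays, all but mock replicate 1 without recovery, reduced the 4 lower calls to 2, which were LCR69 and THI2.2.

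Proteins of the ER body, a compartment of the Brassicaceae that stores a myrosinase-type glucosidase against herbivores, were called lower for 5 of 7 measured genes and higher for 0. PYK10, that glucosidase, read 9.01 and 8.78 in heat, against 11.93 and 11.29 in mock (change -2.71 ± 0.27). NAI2, which forms the ER body, read 4.77 and 5.16 in heat, against 8.32 and 7.95 in mock (change -3.17 ± 0.21). The jacalin-type lectins JAL34 and JAL33, which bind PYK10, fell by 4.67 and 2.85. PYK10 is also the 1 member of the root marker list above the floor, and the summed root list was 9.04 and 8.81 in heat, against 11.93 and 11.29 in mock. The part of root cells in these changes was not tested.

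The CYP71B cytochromes P450, a tandemly copied family of oxidizing enzymes, had 11 of 19 members above the floor. Called lower were 7 of the 19 (36.8%), and 1 was called higher (5.3%), against 19.8% and 21.2% of all probe sets. The higher call ended without heat replicate 1 or heat replicate 2. CYP71B22 read 2.52 and 3.90 in heat, against 7.96 and 7.94 in mock (change -4.74 ± 0.47), and CYP71B23 read 3.06 and 2.54 in heat, against 7.44 and 7.28 in mock (change -4.56 ± 0.21). CYP71B26, at 10.41 and 10.70 in heat against 10.59 and 10.41 in mock, was not called and its groups overlapped. Probes of copied genes may detect each other's transcripts.

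Genes of the cytoskeleton followed. Of 7 tubulins, the building blocks of microtubules, 5 were called lower and 0 higher, at a median of -1.67. TUB5 read 7.35 and 7.42 in heat, against 11.04 and 11.08 in mock (change -3.67 ± 0.10), and TUB1 fell by 3.01. TUB9 was not called, with 8.92 and 8.82 in heat against 9.17 and 9.05 in mock. TON1B, which places the ring of microtubules that foretells the plane of division, read 2.99 and 3.07 in heat, against 6.33 and 6.28 in mock (change -3.28 ± 0.18), and its TRM partners TRM26 and TRM21 fell by 2.63 and 2.24. TRM15 went the other way, with 6.80 and 6.60 in heat against 5.48 and 5.26 in mock (change 1.33 ± 0.20). Over TON1B and the TRM proteins 5 of 15 were called lower (33.3%) and 1 higher (6.7%), at a median of -0.01. Of these 15 genes 4 lay at the floor in both groups. The IQD scaffold proteins, which tie calmodulin to microtubules, were called lower for 6 of 15 and higher for 0, with IQD28 at -2.29 ± 0.09.

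Histone genes were called lower for 4 of 8 measured members, 3 of the H2B type and 1 of the H1 type, and higher for 0, at a median of -0.63. The shares over all probe sets were 19.8% lower and 21.2% higher. The call of HTB2, of the H2B type, was not stable. That call ended with only the 4 compared arrays, with replicate number as a block and when any 1 of the 8 arrays was left out. HTB11 read 7.03 and 7.11 in heat, against 9.45 and 9.35 in mock (change -2.33 ± 0.08), and HON4 read 6.77 and 6.17 in heat, against 8.77 and 8.87 in mock (change -2.35 ± 0.21). HTB4 was not called, with 11.39 and 11.35 in heat against 11.49 and 11.36 in mock. Probe sets of histone copies may share transcripts.

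Cell wall genes included single members with large changes among many that were not called. Of 23 trichome birefringence-like proteins, which acetylate wall polymers, 7 were called lower and 3 higher, against 19.8% and 21.2% of all probe sets. The higher calls numbered 1 without mock replicate 1. TBL45 read 3.05 and 3.49 in heat, against 9.11 and 8.96 in mock (change -5.77 ± 0.16), whereas TBL26 read 6.57 and 7.04 in heat, against 2.35 on both mock arrays (change 4.46 ± 0.17). The mock values of TBL26 lay next to the floor, and with values under 4 set to 4 its rise was 2.805. CSLA03, a mannan synthase relative, read 2.26 and 2.42 in heat, against 7.12 and 7.11 in mock (change -4.77 ± 0.06). Expansins, which loosen walls during growth, showed the same contrast, EXPA8 with 4.39 and 3.98 in heat against 8.66 and 8.83 in mock and the expansin-like EXLB1 with 8.90 and 8.77 in heat against 4.71 and 4.603 in mock. Across 19 expansins 4 were called higher (21.1%) and 2 lower (10.5%), and 9 lay at the floor in both groups. The share called higher was that of all probe sets, 21.2%. The higher calls numbered 2 without mock replicate 1 or mock replicate 2, and the lower calls numbered 1 when any 1 of 7 arrays was left out, all but heat replicate 1.

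Sugar handling changed gene by gene. Of 16 SWEET transporters, which let sugars pass down their gradient, 4 were called higher and 2 lower, against 21.2% and 19.8% of all probe sets, and 7 lay at the floor in both groups. SWEET1 read 10.76 and 10.72 in heat, against 7.67 and 7.77 in mock (change 3.02 ± 0.05, adjusted p 2.3e-05), and SWEET4 read 6.95 and 7.17 in heat, against 2.72 and 2.82 in mock (change 4.29 ± 0.19). SWEET11, which loads sucrose toward the phloem, read 9.73 and 9.76 in heat, against 11.43 and 11.21 in mock (change -1.57 ± 0.14), and the vacuolar SWEET16 fell by 1.94. TMT1, which brings sugar into the vacuole, fell by 2.79, and ATSPS4F, a sucrose phosphate synthase, by 2.35.

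Starch enzymes went both ways. AMY1, a secreted alpha-amylase, read 9.51 and 10.32 in heat, against 2.80 and 5.03 in mock (change 6.0 ± 0.97). DPE1, which reworks maltotriose inside the chloroplast at night, read 7.57 and 7.44 in heat, against 9.69 and 9.38 in mock (change -2.03 ± 0.18). The call of AMY1, whose mock arrays differed by more than 2 log2 units, ended when only the 4 compared arrays were fitted.

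Branched-chain amino acid breakdown in mitochondria was called lower for 6 of 8 genes and higher for 0, at a median of -0.97. MCCA, of methylcrotonyl-CoA carboxylase, read 7.06 and 6.92 in heat, against 9.71 and 10.33 in mock (change -3.03 ± 0.25), and ALDH6B2, a later enzyme of valine breakdown, fell by 1.14. Only 2 of the 6 were called when the 4 compared arrays were fitted alone. ATP citrate lyase, the cytosolic source of acetyl-CoA, had all 4 measured subunit genes called lower, ACLA-3 with 6.63 and 6.85 in heat against 8.74 and 9.19 in mock. That count was 2 without heat replicate 2, without mock replicate 1 or without mock replicate 2.

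Of 11 genes that remove reactive oxygen 2 were called higher (18.2%) and 4 lower (36.4%), at a median of -0.15. Of all probe sets 21.2% were called higher and 19.8% lower. TAPX, the ascorbate peroxidase of the thylakoid membrane, read 6.97 and 7.01 in heat, against 8.87 and 8.84 in mock (change -1.87 ± 0.05), while the stromal SAPX read 8.80 and 9.20 in heat, against 7.57 and 7.29 in mock (change 1.56 ± 0.17). The cytosolic glutathione reductase GR1 rose by 1.23 ± 0.08. Tau glutathione transferases gave 3 rises (27.3%), of which 1 was called with only the 4 compared arrays, and 4 falls (36.4%) among 11. GSTU20 read 8.38 and 8.37 in heat, against 11.28 and 10.74 in mock.

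The gibberellin receptors were the 3 hormone receptors of the lists. GID1A read 6.28 and 6.40 in heat, against 7.51 and 7.55 in mock (change -1.19 ± 0.08), and GID1C read 3.52 and 3.19 in heat, against 5.42 and 5.16 in mock (change -1.93 ± 0.19). GID1B read 6.02 and 6.63 in heat, against 4.35 and 5.01 in mock (change 1.64 ± 0.33), and lost its call without heat replicate 2 or mock replicate 1 and with only the 4 compared arrays.

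Whether these changes differed from those seen 2 days later was tested as the change without recovery minus the change after recovery. That difference was called for 7350 probe sets (32.3%), 3846 of them higher directly after the stress (16.9%) and 3504 lower (15.4%). After recovery, heat and mock differed in 54 probe sets (0.237%), and the mock seedlings of the 2 times differed in 18 (0.0791%). Of the 4825 probe sets called higher without recovery, 76.4% also differed in size between the 2 times, and of the 4509 called lower, 74.1% did. These shares are a description, since both tests use the 4 arrays without recovery. After recovery 89.2% of those called higher and 83.0% of those called lower lay within 0.5 log2 units of the mock value, against 90.6% of all probe sets and 93.6% of those not called. The shares were smaller for large changes. For changes of at least 4-fold they were 77.7% of rises and 68.7% of falls, and for changes of at least 16-fold 60.3% and 55.4%.

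**Figure D5:**
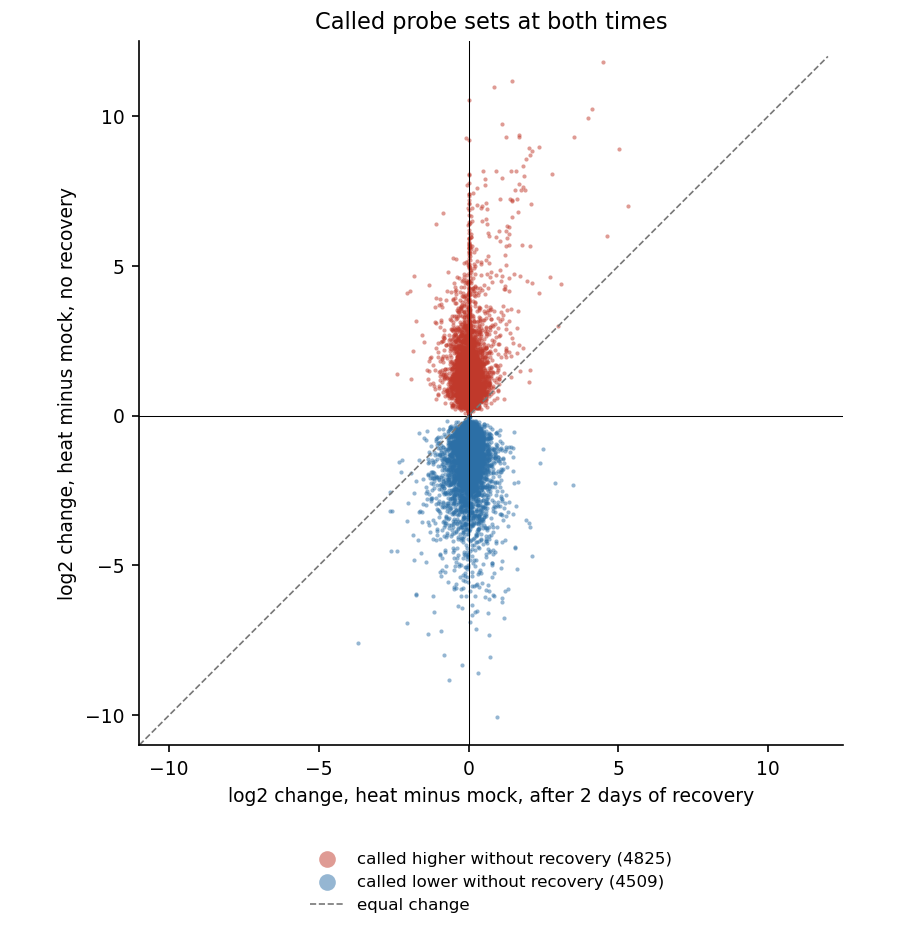
Log2 change of heat minus mock without recovery (y axis) against that after 2 days of recovery (x axis) for the probe sets called without recovery, 4825 higher (red) and 4509 lower (blue). The dashed line marks equal changes. Most points stand along the vertical axis, near 0 after recovery.

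Single genes show this comparison. LHCB4.2 read 13.67 and 13.82 in recovered heat seedlings, against 13.81 and 13.94 in their mock controls, and its change directly after the stress was lower by -3.51 ± 0.16 (adjusted p 0.00055). NRPC1 read 4.11 and 4.47 in recovered heat seedlings, against 4.26 and 3.62 in mock, and differed between the times by 2.70 ± 0.38. SQN read 3.09 and 3.24 in recovered heat seedlings, against 3.60 and 3.78 in mock, a difference between the times of 5.80 ± 0.22. The recovered heat arrays of these 3 genes lay within 1 log2 unit of the mock arrays. AMY1 read 6.48 and 8.06 in recovered heat seedlings, against 2.81 and 2.46 in mock, and no difference between the times was called for it (adjusted p 0.56).

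Values after recovery are given next for 3 of the largest rises. AT1G53540 read 6.30 and 7.03 in recovered heat seedlings, against 2.70 and 2.37 in mock, a change of 4.13 ± 0.28 that passed the test (adjusted p 0.038). AT2G29500 read 6.41 and 7.09 in recovered heat seedlings, against 3.20 and 3.28 in mock, and ROF2 read 6.41 and 6.52, against 5.02 and 4.54. For both genes the heat arrays stayed above the mock arrays, and neither change was called after recovery (adjusted p 0.072 for AT2G29500 and 0.20 for ROF2). The change directly after the stress was larger by 6.10 ± 0.40 for AT1G53540, by 5.81 ± 0.52 for AT2G29500 and by 7.68 ± 0.56 for ROF2.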

How the data were processed

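RNA of 8 seedling samples was column-purified and biotin-labelled by the standard Affymetrix method, as the labels describe. The authors deposited 1 value per probe set and array, made with GCRMA per the submitters' processing notes, which name no version. Those numbers lack a decimal point. Putting it back gave log2 values of 2.18 to 15.23, and the log2 scale is read from these numbers and the deposited GCRMA label.

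Apart from 64 control probe sets, all arrays entered a limma 3.58.1 model in R 4.3.3 with a mean for each group. Tests were two-sided and moderated, with Benjamini-Hochberg adjustment over 22746 probe sets and a threshold of 0.05. Simulated arrays with 200 changed probe sets were used to test the code. The number of arrays, 2 per group, limits the precision.

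A single gene was listed for 13513 probe sets, several for 503 and none for 8730, which were tested but are unnamed here. Names came from RefSeq (assembly TAIR10.1). No coordinates are printed because no build is named for the array. Among 152 genes with several probe sets, 23 had several called, 20 of these in the same direction.

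Members and lists were chosen with earlier results of these data known, and 50 lists were collected by hand from gene symbols after values had been seen. A planned group of 19 lists and a promoter search are not analysed here. Named were the 15 largest rises and falls among probe sets with 1 nuclear gene and separated groups. From each list came up to 4 called members with the smallest p, the strongest called member against the majority and up to 2 uncalled ones. Other named members, such as Hop2, Fes1A, ATJ1, cox1, cox2, nad9, GID1B and SWEET11, were chosen after their values were seen. Alternatives were the 4 compared arrays alone, a replicate block, a low value filter, a floor, 2 scalings, a trend prior, a test against 1 log2 unit, 1-gene probe sets and leaving out each array. Tables and plots used Python 3.11.15, pandas 2.3.3 and matplotlib 3.10.9.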

Additional observations from a re-analysis of the deposited data

Results flagged for a closer look

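The results in this section stand apart because the heat effect was tested as different between seedlings sampled directly after the stress and seedlings sampled after 2 days of recovery. In limma's fit this difference, the change without recovery minus the change after it, was called for 7350 of 22746 probe sets (32.3%). It is listed here for the 15 largest rises and the 15 deepest falls.

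Among the rises the difference on the log2 scale was 10.132 for AT3G02480, 8.045 for AT5G51440, 8.044 for LEA4-5, 8.042 for AT2G07722, 7.683 for ROF2, 7.417 for AT3G17520 and 7.349 for AT2G07777. It was 7.341 for SAG29, 7.271 for ATHSP22.0, 7.157 for Hop3, 6.582 for AT2G37870, 6.104 for AT1G53540, 5.812 for AT2G29500, 5.8 for AT5G25450 and 5.301 for AT2G07741. The genes were chosen for their change directly after the stress, which enters this difference, so its direction is largely fixed by that choice.

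Among the falls the difference was -8.909 for AT3G15450, -8.001 for AT3G15630, -7.267 for AT1G23390, -7.187 for AT1G66100, -6.942 for AT1G52200, -6.812 for DEWAX and -6.578 for AT1G78460. It was -6.45 for AT1G55450, -6.26 for AT5G48490, -6.234 for AT5G18600, -5.914 for AT3G05730, -5.763 for AT5G62280, -5.4 for AT5G55450, -4.866 for AT3G16670 and -4.829 for PRX71. The adjusted p of AT3G05730, 0.0435, was the highest of the 30 genes, and its 2 heat arrays read 3.73 and 6.82.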

How the results depend on the processing

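Leaving out each of the 8 arrays in turn gave 7578 to 8875 called probe sets, 3723 to 4565 higher and 3618 to 4310 lower, with 0 of opposite sign, and 5610 to 6666 for the difference between the times. Fitting only the 4 compared arrays called 7067 (31.1%), 3616 higher and 3451 lower. A test against 1 log2 unit called 2991, of which 1455 were higher and 1536 lower, and 2200 for the difference between the times. Restricting the table to probe sets with 1 gene gave 4961, of which 2659 were higher and 2302 lower, and 3828 for that difference, since fewer probe sets were tested. With replicate number as a block 8705 were called, 4511 higher and 4194 lower, and 6545 for the difference between the times. Deviations of same-numbered samples correlated at 0.003 between heat and mock without recovery and at -0.134 to 0.154 over all pairs of groups. With 2 arrays per group these values cannot settle whether the number pairs samples, and the fit reported used no pairing. Of 483 named called genes 279 lost the call in 1 alternative or more, 270 of them under the test against 1 log2 unit and 167 under others, and 0 reversed. Of 1530 list medians under alternatives 163 moved beyond the spread between replicates and 0 reversed. With 2 arrays per group and a floor that held 6208 probe sets in both groups, small changes and low transcripts are the least certain.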

Other observations

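Several gene families are not described above. Of 51 UGT glycosyltransferases, which attach sugars to hormones and secondary metabolites, 13 were called higher and 8 lower, against 21.2% and 19.8% of all probe sets. The lower calls numbered 5 with only the 4 compared arrays. UGT73C1, with both mock arrays at the floor, increased by at least 5.76 ± 0.10, and UGT76C2, which glucosylates cytokinins, fell by 2.76 on the log2 scale. Of 7 exocyst subunits, which tether secretory vesicles, 3 were called lower and 0 higher, with SEC6 at -0.79 ± 0.05. Of 15 tetraspanins, small membrane organizers, 3 were called lower and 1 higher, with TET3 at -2.06 and TET2 at 2.08.

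Calls were spread unevenly over the range of signal. Probe sets were binned by their level in the recovered mock seedlings, which are not part of the comparison. Of 9802 probe sets at log2 2 to 4, 11.4% were called higher and 2.1% lower. Of 3465 at 4 to 6, 32.7% were called higher and 20.2% lower. Of 3043 at 8 to 10, 24.4% were called higher and 44.7% lower, and of 282 at 12 to 16, 21.6% were called higher and 57.1% lower.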
